A study of Mus musculus with 16 samples.

Results

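The livers described here are those of mice that lack Cpt1a in the liver (LKO) and that were killed either after a fast or after the same fast and a meal period. They were chosen by the genotype label CPT1a LKO and make up 8 of the 16 samples of a bulk RNA sequencing study of male mouse liver, and all genes of the count table were considered: 14488 of 25803 had enough counts to be tested. All mice had been on a high-fat diet (HFD) for 12 weeks. The fasted LKO group (4 libraries) was killed after 16 h without food, and the refed LKO group (4 libraries) after 16 h without food and 6 h of refeeding. The fasted control and refed control groups (4 libraries each) had the same diet and feeding schedule and carry the genotype label Control, and they serve here as the background response. The study's title concerns plasma cholesterol after loss of hepatic CPT1a. Age, strain, the means of deletion and the deleted exons are not given in the sources used here, nor whether each library is a separate mouse, so the p-values measure the spread between libraries, which may in part be technical. The hour of killing is not given either, and food and the 6 h that had passed cannot be told apart.

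Cpt1a encodes carnitine palmitoyltransferase 1a, which loads long-chain fatty acids onto carnitine at the outer mitochondrial membrane and so admits them to oxidation and ketone synthesis. In a fasted liver, fatty acids from adipose tissue are the main fuel, they activate the nuclear receptor PPARA, and low insulin leaves FOXO factors active in the nucleus. A meal raises insulin and glucose, which drive the lipogenic factors SREBP-1c and ChREBP, silence FOXO targets, and raise secretion of proteins through the endoplasmic reticulum (ER), while the sterol factor SREBP2 follows the cholesterol content of ER membranes.

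The 8 LKO libraries held between 15103715 and 22078864 counts. Between libraries of a group the correlation across genes, which are not independent, was 0.968 to 0.986 (Pearson's r on log2 values). On the first principal component of these 8 libraries, which carried 38.5% of the variance, the fasted libraries lay between -41.5 and -17.1 and the refed libraries between 18.9 and 40.05. Values per library are given below as CPM, counts divided by a library total in M (mega) counts that was scaled by edgeR's trimmed-mean (TMM) factors, always in the order S44, S45, S46, S47 for fasted LKO and S52, S53, S54, S55 for refed LKO, which are the names the deposited tables give the libraries. Of 7 tested hepatocyte markers, albumin among them, 0 were called changed, beside 18.1% of all genes, and 7 genes are few to judge by.

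Cpt1a itself was counted over the whole gene, and which exons are deleted is not known here. Fasted LKO libraries held 94.8, 86.1, 126 and 95.6 CPM and refed LKO libraries 39.9, 75.2, 59.9 and 41.9 CPM. Every refed library lay below every fasted library. The log2 fold change (refed over fasted) was -0.89 (SE 0.22, edgeR adjusted p = 0.0113), and an exact two-sided permutation test gave p = 0.0286, the smallest that 4 against 4 libraries allow. In control liver Cpt1a averaged 487 ± 83.2 CPM fasted and 457 ± 137 CPM refed (SD, n = 4), a log2 change of -0.09 (adjusted p = 0.817). The difference between the responses of the genotypes was -0.80 (SE 0.31) and did not pass (adjusted p = 0.206).

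In refed LKO liver many genes of lipogenesis, cholesterol synthesis, ER chaperones and DNA replication stood higher than in fasted LKO liver, and many targets of PPARA, some of FOXO, 7 autophagy genes and the metallothioneins stood lower. A gene is called changed at a Benjamini-Hochberg adjusted p under 0.05 by edgeR's quasi-likelihood test, adjusted over all 14488 genes. By that rule 2616 genes (18.1% of those tested) changed, 1344 (9.28%) higher and 1272 (8.78%) lower after refeeding. The median absolute log2 fold change of the called genes was 0.60, the change was at least 2-fold for 610 of them (320 higher, 290 lower), and the median over all genes tested was -0.02. The 4 fasted and 4 refed libraries did not overlap for 2173 of the 2616 called genes, against 20.6% of all genes tested. Upper quartile scaling shifted the balance a little, to 47.2% higher among 2628 calls. Long noncoding RNAs were called lower more often than higher: of 1049 tested, 50 (4.77%) rose and 125 (11.9%) fell, where of 12591 protein-coding genes 1259 rose and 1122 (8.91%) fell. The authors' deposited table for these 2 groups lists 2357 genes at an adjusted p under 0.05, and the fit used here called 2144 of these, each with the sign of the authors' table. In bulk tissue, a change in the number of cells of a type and a change in RNA per cell cannot be told apart.

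The largest rises, among called protein-coding genes with a mean of at least 5 CPM over the 8 LKO libraries and no overlap, included Uhrf1, Idi1, Fdps, Thrsp, Mcm5, Mcm6, Sqle and Col27a1. In fasted LKO liver Idi1, Fdps, Mcm5 and Mcm6 averaged 2.58, 0.727, 3.07 and 2.75 CPM, so they met that mean only through the refed libraries. Idi1, Fdps and Sqle belong to sterol synthesis, Mcm5, Mcm6 and Uhrf1 to the copying of DNA and of its methylation, and Thrsp to the making of fat from glucose. Uhrf1, which recruits maintenance DNA methylation to newly made DNA, stood at 0.449, 0.453, 0.729 and 0.435 CPM in the fasted libraries and at 20.98, 3.73, 6.92 and 9.96 CPM in the refed ones. It was below 1 CPM in every fasted library, so that it reached that mean only through the refed ones, with S46 the highest of them, and refed S52 was the highest of all. The log2 fold change amounted to 4.32 (SE 0.49, adjusted p = 4.38e-05). Col27a1, a fibrillar collagen gene, was at 13.5, 19.7, 19.3 and 9.32 CPM fasted and 146, 143, 109.7 and 124 CPM refed. Its refed libraries lay within a narrow band far above the fasted ones, with a log2 fold change of 3.08 (SE 0.26, adjusted p = 1.10e-05), and it rose in control liver too (2.24, adjusted p = 0.000163).

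The largest falls under the same conditions were Ppp1r3g, Mt1, Pdk4, Krt23, Trib3, Rab30, Ly6d, Nr1d1, Tymp and Plin4. In refed LKO liver Ppp1r3g, Pdk4 and Krt23 averaged 0.286, 3.83 and 3.28 CPM, so they met the required mean only through the fasted libraries. Mt1, a metallothionein that binds zinc and copper, was at 76.8, 272, 66.1 and 141 CPM fasted and 7.67, 8.895, 16.6 and 10.01 CPM refed. The fasted libraries varied several-fold among themselves, S45 being the highest, yet the lowest of them lay well above the highest refed library. The log2 fold change amounted to -3.69 (SE 0.52, adjusted p = 0.0002099), and in control liver Mt1 changed by -3.46 (adjusted p = 0.0006503). Mt2, its neighbour and near-copy, moved by -3.96 (SE 0.68, adjusted p = 0.000855), and reads shared between near-identical genes make both counts uncertain. Trib3, a pseudokinase induced by amino acid stress, was at 45.5, 26.98, 25.7 and 30.95 CPM fasted and 2.25, 6.998, 8.53 and 6.32 CPM refed, a log2 change of -2.43 (SE 0.38, adjusted p = 0.000433). Tymp, which breaks down thymidine, and Plin4, a lipid droplet coat protein, changed by -2.03 (SE 0.35) and -2.02 (SE 0.36). Ly6d, a surface antigen, fell by 2.23 (SE 0.60, adjusted p = 0.0167), a call lost without S44 (adjusted p = 0.0501) or S53 (0.0511).

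Some of the best resolved changes were of moderate size. The smallest p-values among rises belonged to Col27a1, Srm, Tuba1c, Ndufaf4 and Tpst1, and among falls to Smim13, Lgals4, Rtf2, Retreg1 and Crat. Srm makes spermidine, a polyamine needed for growth, and was at 28.9, 34.9, 35.5 and 32.1 CPM fasted and 63.3, 84.1, 73.7 and 77.5 CPM refed. Every refed library lay well above the highest fasted library, and the log2 fold change amounted to 1.18 (SE 0.10, adjusted p = 1.10e-05). Tuba1c, an alpha-tubulin, was at 73.98, 55.6, 49.7 and 52.3 CPM fasted and 165, 148, 165 and 164 CPM refed. Crat, which moves acetyl groups between coenzyme A and carnitine, was at 371, 282, 321 and 302 CPM fasted and 135, 164, 157 and 129 CPM refed, a log2 change of -1.12 (SE 0.12, adjusted p = 3.31e-05). Retreg1, a receptor for the autophagy of ER sheets, changed by -1.18 (SE 0.12, adjusted p = 2.11e-05).

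**Figure D1:**
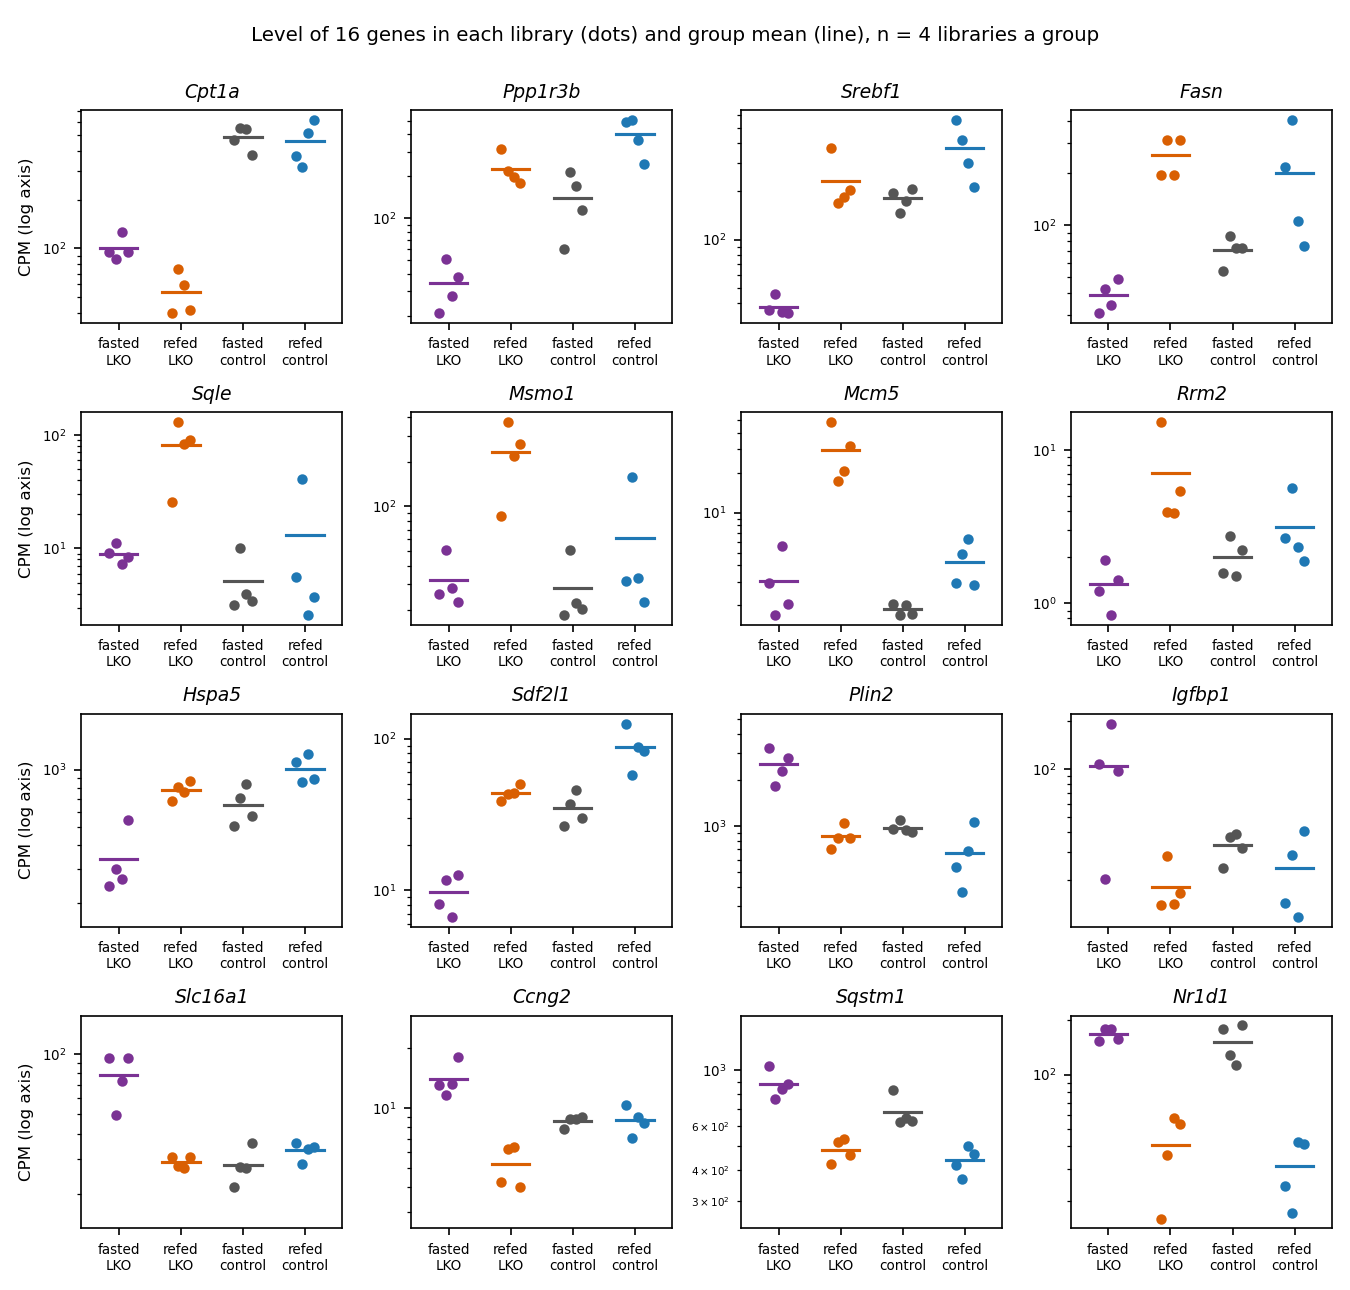
CPM of 16 genes in each library, on a log axis, with dots for libraries, lines for group means, and the fasted LKO, refed LKO, fasted control and refed control groups from left to right. Ppp1r3b, Srebf1, Fasn, Sqle, Msmo1, Mcm5, Rrm2, Hspa5 and Sdf2l1 stand higher in refed than in fasted LKO liver, and Cpt1a, Plin2, Slc16a1, Ccng2, Sqstm1 and Nr1d1 lower, without overlap; Igfbp1 overlaps because fasted library S45 is low.

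Insulin signalling genes were examined first. Igfbp1 and Irs2, both induced by FOXO factors when insulin is low, fell in refed LKO liver. Of the 15 listed insulin and FOXO target genes 6 fell (40%, against 8.78% of all genes) and 0 rose, with a median log2 fold change of -0.17. Igfbp1, a secreted protein that binds insulin-like growth factors, was at 107, 20.2, 193 and 96.7 CPM fasted and 13.9, 27.99, 14.03 and 16.5 CPM refed. Fasted S45 lay inside the refed range and the other 3 fasted libraries far above it, for a log2 fold change of -2.53 (SE 0.51, adjusted p = 0.00272). Irs2, the main insulin receptor substrate of fasted liver, was at 25.01, 11.9, 38.9 and 21.01 CPM fasted and 3.74, 7.78, 5.87 and 7.23 CPM refed. These groups did not overlap, and the log2 fold change amounted to -1.98 (SE 0.36, adjusted p = 0.00142). The insulin receptor gene Insr fell by 0.39 (SE 0.10, adjusted p = 0.00913) and the cyclin G gene Ccng2 by 1.42 (SE 0.17, adjusted p = 7.13e-05). The gluconeogenic genes on the same list were not called: Pck1, which makes phosphoenolpyruvate, stood at 3962, 2370.3, 5203 and 2544 CPM fasted and 2803, 2688, 2457 and 2631 CPM refed (adjusted p = 0.345), and G6pc, which releases free glucose, changed by 0.32 (SE 0.34, adjusted p = 0.572). In control liver G6pc rose by 1.49 (SE 0.35, adjusted p = 0.0102), and the difference between the genotypes was not called (adjusted p = 0.235). Among the 15 genes of gluconeogenesis and glycerol use 1 rose and 1 fell, the latter Gk, glycerol kinase (-0.62, SE 0.16, adjusted p = 0.0143), a share of 13.3% beside 18.1% of all genes. These counts were unstable: 4 fell without S44, 2 without S45 and 3 among genes with a mean of at least 5 CPM, and 0 rose without S44, S47, S52, S53 or S55.

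Some genes of glucose and fructose use rose. Of 18 genes of glycolysis, fructose use and ChREBP 5 rose and 1 fell (0 fell without S44, S46, S52 or S55), with a median log2 fold change of 0.30. The share called was 33.3%, against 18.1% of all genes. In control liver 3 rose, and 1 without S40, S41 or S49. Pklr, liver pyruvate kinase and a ChREBP target, was at 47.7, 73.4, 47.5 and 66.9 CPM fasted and 125, 161, 158 and 163 CPM refed, a log2 change of 1.36 (SE 0.19, adjusted p = 0.000209). Every refed library lay above the highest fasted one. Tkfc, which phosphorylates glyceraldehyde from fructose, rose by 1.04 (SE 0.19) and in control liver by 1.04 (SE 0.19), and Slc2a2, the glucose transporter GLUT2, by 0.57 (SE 0.13).

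Glycogen genes moved in both directions. Of 13 listed genes 3 rose and 1 fell (30.8% called, against 18.1% of all genes). The count that fell was 2 without S47 or S53 and 0 in the fit of only the 2 groups compared. Ppp1r3b, which targets protein phosphatase 1 to glycogen, was at 20.8, 50.5, 27.4 and 38.04 CPM fasted and 312, 217, 196 and 179 CPM refed. All refed libraries exceeded the highest fasted one, with a log2 fold change of 2.73 (SE 0.37, adjusted p = 0.000142). Its relative Ppp1r3g went the other way, from 10.7, 0.509, 30.6 and 1.62 CPM fasted to 0.102, 0.392, 0.433 and 0.217 CPM refed. Here the fasted libraries were themselves far apart, S44 and S46 high and S45 and S47 low, and the refed libraries were all below them (-5.28, SE 1.14, adjusted p = 0.00435). The call of Ppp1r3g was lost with limma-voom. The branching enzyme gene Gbe1 rose by 0.62 (SE 0.13). The pyruvate dehydrogenase kinase gene Pdk4, which keeps pyruvate from oxidation during a fast, was at 34.1, 6.28, 13.5 and 49.97 CPM fasted and 4.196, 3.53, 4.39 and 3.21 CPM refed, a log2 change of -2.76 (SE 0.50, adjusted p = 0.00134). Pdk4 averaged 4.98 ± 2.31 CPM in fasted control and 5.12 ± 2.11 CPM in refed control liver (SD, n = 4), close to the refed LKO level, and the difference in response did not pass (adjusted p = 0.0707).

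Many genes of de novo lipogenesis rose. Of 20 genes tested 10 rose, 2 fell and 8 were not called, with a median log2 fold change of 0.66 (control: 7 rose, median 0.22). The share called in LKO liver was 60%, against 18.1% of all genes. Srebf1, which encodes the lipogenic factor SREBP-1, was at 36.4, 45.9, 35.1 and 34.6 CPM fasted and 373, 168, 183 and 203 CPM refed. The fasted libraries were close together, refed S52 stood highest, and the log2 fold change amounted to 2.61 (SE 0.28, adjusted p = 3.32e-05). Control liver went from 181 ± 27.2 to 374 ± 151 CPM (SD, n = 4), a log2 change of 1.05 (adjusted p = 0.0159; 0.0616 without S48), and the difference between the responses was not called (1.57, adjusted p = 0.0647). Fasn, fatty acid synthase, was at 30.6, 42.4, 34.4 and 48.5 CPM fasted and 196, 312, 195 and 310.1 CPM refed, a log2 change of 2.70 (SE 0.40, adjusted p = 0.000308). All refed libraries lay far above the highest fasted library. Acly, which makes cytosolic acetyl-CoA from citrate, rose by 1.70 (SE 0.27), Acaca, the lipogenic acetyl-CoA carboxylase, by 0.77 (SE 0.18), and Elovl6, the elongase of palmitate, by 1.53 (SE 0.35). Thrsp and Mid1ip1, partner proteins of that carboxylase, rose by 3.70 (SE 0.55) and 2.66 (SE 0.32). Aacs, which activates acetoacetate for lipid synthesis in the cytosol, was at 9.38, 12.9, 9.304 and 7.96 CPM fasted and 27.4, 121, 55.2 and 82.4 CPM refed.

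The 2 lipogenesis genes that fell were Acacb and Elovl5. Acacb, the carboxylase at the mitochondrial surface whose product inhibits CPT1, was at 72.1, 27.8, 65.5 and 33.8 CPM fasted and 11.3, 22.4, 23.9 and 13.9 CPM refed. The groups did not overlap, and the log2 change was -1.49 (SE 0.33, adjusted p = 0.00552). Elovl5, an elongase of polyunsaturated fatty acids, was at 1037, 850.1, 1080.2 and 1086 CPM fasted and 555, 578, 624 and 589 CPM refed, a log2 change of -0.79 (SE 0.12, adjusted p = 0.000447). Scd1, the desaturase that makes oleate, showed no common direction: it was at 219.8, 1909.6, 1049 and 1159 CPM fasted and 1624, 744, 596 and 194 CPM refed. Both groups spread over several-fold and overlapped, with a log2 change of -0.46 (SE 0.69, adjusted p = 0.702).

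Cholesterol synthesis was the list with the highest median. Of its 20 genes 17 rose (85%, against 9.28% of all genes) and 0 fell. All 20 estimates were positive, with a median log2 fold change of 2.04 against -0.02 over all genes. In control liver 3 rose and the median was 0.70, with 0 rising without S40, S43 or S49, 1 without S42 and 5 without S51. Without S49 1 gene, Tm7sf2, was called lower in control liver (-0.83, edgeR adjusted p = 0.0494). Msmo1, a sterol C4-methyl oxidase, was at 25.8, 51.4, 28.3 and 22.7 CPM fasted and 85.7, 371, 218 and 262 CPM refed, a log2 change of 2.87 (SE 0.59, adjusted p = 0.00322). Idi1, which isomerises the isoprene unit, was at 2.95, 2.04, 3.03 and 2.300 CPM fasted and 15.9, 58.5, 31.3 and 49.4 CPM refed, a log2 change of 3.90 (SE 0.70, adjusted p = 0.00122). For both genes S52 was the lowest refed library and above all fasted ones.

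Most other enzymes rose, by varying amounts. Sqle, squalene epoxidase, was at 25.4, 130.3, 82.6 and 89.6 CPM in the refed libraries, against 7.34 to 11.1 CPM in the fasted ones. Mvk and Mvd, kinase and decarboxylase of mevalonate, rose by 2.19 (SE 0.40) and 2.96 (SE 0.63), and Lss, lanosterol synthase, by 2.42 (SE 0.34). A smaller rise was seen for Sc5d (0.96, SE 0.15), an enzyme of the last steps. The 3 genes that were not called were Tm7sf2 (0.46, adjusted p = 0.372), Hsd17b7 (0.42, adjusted p = 0.298) and Ebp (0.27, adjusted p = 0.139). Fdps changed by 3.71 (SE 0.79), with refed S52 at 1.995 CPM beside 11.4 to 12.9 CPM in the others, and its processed pseudogenes make its count uncertain. Taken as the mean of log2(CPM + 0.1) over the list, relative to the mean of all 8 LKO libraries, refed S52, S53, S54 and S55 stood at 0.07, 1.56, 0.93 and 1.25, and the fasted libraries between -1.12 and -0.63. Of the refed control libraries S49 stood at 0.69 and the other 3 between -1.28 and -0.77. The difference between the genotypes' responses was called for 0 of the 20 genes (edgeR, adjusted over all genes), although its median was 1.32 and 19 of 20 estimates were positive. That count rested on refed control S49: without it the difference was called for 13 of the 20, all more upward in LKO liver.

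Genes that sense or import sterols moved with the enzymes in part: of 13 tested 6 rose and 2 fell (61.5% called, against 18.1% of all genes). Srebf2, the sterol factor gene, rose by 0.82 (SE 0.20), Stard4, a cytosolic sterol carrier, by 1.29 (SE 0.27), and Nr1h3, the oxysterol receptor LXR alpha, by 0.45 (SE 0.09). The 2 INSIG genes, whose proteins hold SREBPs in the ER, went in opposite directions. Insig1 was at 37.7, 61.8, 33.5 and 31.9 CPM fasted and 130.4, 171, 164 and 213 CPM refed, a log2 change of 2.04 (SE 0.41, adjusted p = 0.00287). Insig2, which insulin is known to lower, was at 392, 323, 225 and 641 CPM fasted and 252, 122, 129 and 107 CPM refed, a log2 change of -1.37 (SE 0.30, adjusted p = 0.00511), with refed S52 inside the fasted range. Npc1, which exports cholesterol from lysosomes, fell by 0.72 (SE 0.17, adjusted p = 0.00777).

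**Figure D2:**
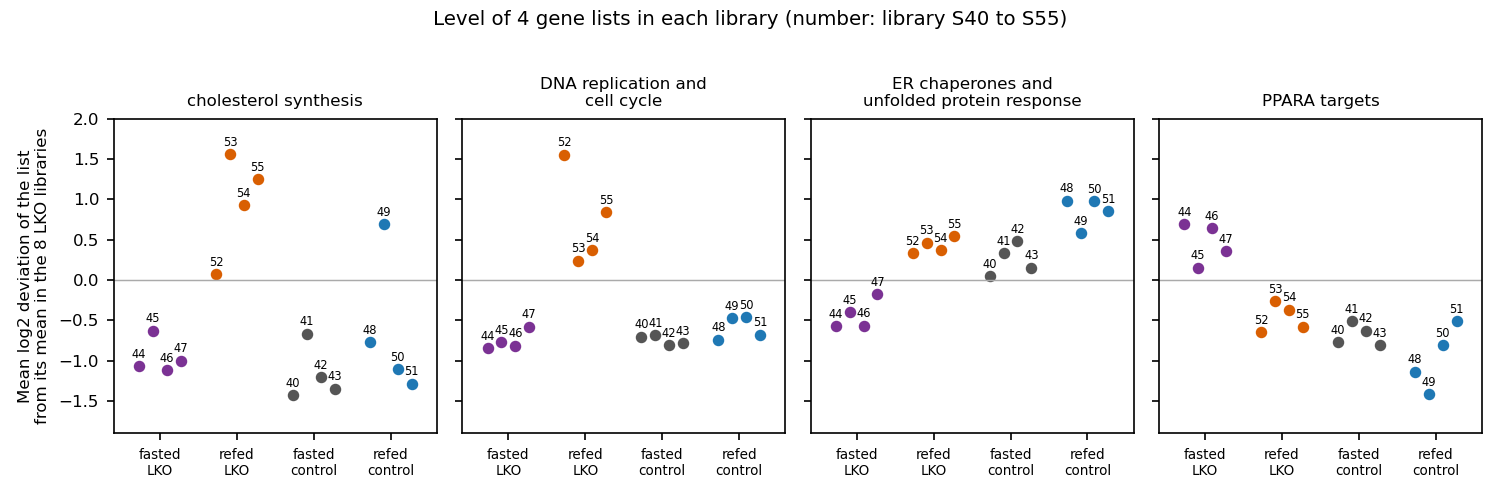
Level of 4 gene lists in each library: the mean over the list's genes of log2(CPM + 0.1), less the mean of the 8 LKO libraries, with the library number beside each dot. Refed S52 is lowest of the refed LKO group for cholesterol synthesis (0.07) and highest for DNA replication (1.56), and refed control S49 (0.69) is above the other control libraries for cholesterol synthesis.

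Most listed targets of PPARA fell in LKO liver. Of 22 tested 14 fell (63.6%, against 8.78% of all genes) and 0 rose, with a median log2 fold change of -0.75. In the fits without S46 or without S52 10 fell. In control liver 1 fell (0 without S40, S48, S49 or S50, and 5 without S51) and 0 rose (1 without S49), from fasted levels already below those of fasted LKO (list means of -0.81 to -0.51 against 0.15 to 0.70 on the scale above). The difference between the responses was called for 2 of the 22, against 0.538% of all genes, and both were more downward in LKO liver. That count was 5 without S49, 1 without S44, S51 or S52, and 0 without S40, S42, S43, S46, S48, S50, S53, S54 or S55. Plin2, the main lipid droplet coat protein of hepatocytes, was at 3250.1, 1816, 2296 and 2812 CPM fasted and 705, 835, 1047 and 835 CPM refed. Every refed library lay well below the lowest fasted library, and the log2 change was -1.57 (SE 0.25, adjusted p = 0.000509). Acsl1, which activates long-chain fatty acids, was at 2059, 2157, 2293 and 1907 CPM fasted and 1152, 1314, 1092 and 955 CPM refed, a log2 change of -0.90 (SE 0.17, adjusted p = 0.00221). The thioesterase genes Acot1, Acot2, Acot3 and Acot4 changed by -1.86, -1.67, -2.01 and -0.80, with counts made uncertain by their near-identical sequences. The fasting hormone Fgf21 was at 102, 52.1, 67.4 and 49.8 CPM fasted and 10.9, 32.8, 25.5 and 12.3 CPM refed (-1.74, SE 0.57, adjusted p = 0.0431). That call was lost in 6 of 8 fits with 1 library fewer, those without S44 (adjusted p = 0.118), S45 (0.0515), S46 (0.0685), S52 (0.122), S54 (0.0622) and S55 (0.120). Cyp4a14, a fatty acid omega-hydroxylase with near-identical relatives, was not called: it was at 5793, 3531, 7229 and 3380.3 CPM fasted and 2768, 4529, 3376 and 4252 CPM refed, groups that overlapped.

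Genes of mitochondrial oxidation were next. Of 22 genes of mitochondrial fatty acid oxidation and ketogenesis 6 fell (27.3%, against 8.78% of all genes), 0 rose, and the median was -0.19. Downstream of the missing enzyme, the carnitine carrier gene Slc25a20 was at 317, 378, 338 and 345 CPM fasted and 207, 232, 229 and 205 CPM refed, a log2 change of -0.66 (SE 0.09, adjusted p = 0.000216). Cpt2, which returns acyl groups to coenzyme A in the matrix, fell by 0.39 (SE 0.09) and Etfdh, which passes their electrons to ubiquinone, by 0.44 (SE 0.11). The largest fall on this list was that of Slc16a1, the monocarboxylate transporter that carries ketone bodies and lactate. It measured 95.9, 49.4, 73.3 and 95.5 CPM fasted and 30.6, 27.8, 27.1 and 30.5 CPM refed. The refed libraries were nearly equal and well below the lowest fasted library, S45, with a log2 change of -1.44 (SE 0.18, adjusted p = 8.18e-05).

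Most of the listed ER chaperone genes rose. Of 26 genes of the ER chaperone and unfolded protein response list 18 rose (69.2%, against 9.28% of all genes) and 0 fell. All 26 estimates were positive, with a median log2 fold change of 0.76 (control: 17 rose, median 0.62). Several of their promoters hold an ER stress response element, the bases CCAAT and CCACG separated by 9 bases, and the stretches that hold it are shown here because the element is known from the promoters of ER chaperones and 8 of the 18 genes that rose hold it. In the RefSeq promoter table (build GRCm38.p6, 250 bases before to 50 after each gene's start, 21 of 26 genes matched), 9 of 21 promoters of the list (42.9%) held the element on either strand, against 39 of 32851 promoters in the table (0.119%). Each line gives 20 bases to either side, 5′ to 3′ on the gene's strand, with the 2 conserved parts in capitals (CGTGG and ATTGG where the element reads on the other strand). The element contains a CCAAT box by construction.
Hspa5: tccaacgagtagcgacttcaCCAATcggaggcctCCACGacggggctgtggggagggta
Creld2: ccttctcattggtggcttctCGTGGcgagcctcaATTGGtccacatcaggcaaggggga
Pdia6: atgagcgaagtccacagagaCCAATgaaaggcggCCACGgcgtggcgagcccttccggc
Calr: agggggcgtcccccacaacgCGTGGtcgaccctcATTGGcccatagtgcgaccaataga
Canx: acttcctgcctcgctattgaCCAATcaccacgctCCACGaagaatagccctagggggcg
Dnajc3: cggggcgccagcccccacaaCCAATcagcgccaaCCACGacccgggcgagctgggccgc
Syvn1: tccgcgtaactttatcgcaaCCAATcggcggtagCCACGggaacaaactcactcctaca
Derl3: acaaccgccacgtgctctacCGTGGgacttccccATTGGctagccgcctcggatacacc
Hsp90b1, outer copy: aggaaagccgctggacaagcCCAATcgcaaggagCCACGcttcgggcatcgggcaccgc
Hsp90b1, inner copy: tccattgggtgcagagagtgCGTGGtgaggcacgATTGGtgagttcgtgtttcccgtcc
They lie at chr2:34772005-34772063 (Hspa5, plus strand), chr15:88819500-88819558 (Creld2, plus strand), chr12:17266471-17266529 (Pdia6, plus strand), chr8:84847055-84847113 (Calr, minus strand), chr11:50325780-50325838 (Canx, minus strand), chr14:118937807-118937865 (Dnajc3, plus strand), chr19:6046512-6046570 (Syvn1, plus strand) and chr10:75893222-75893280 (Derl3, plus strand), and for Hsp90b1, which has 2, at chr10:86705618-86705676 (Hsp90b1, minus strand) and chr10:86705513-86705571 (Hsp90b1, minus strand), all on GRCm38.p6. Of the 9 genes 8 were called higher in refed LKO liver, the exception being Derl3. Another 11 tested genes outside the list hold the element, and 3 of these rose and 1 fell. A match is a description of the letters and not of binding.

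Hspa5, the chaperone BiP, was at 244, 301, 266 and 541 CPM fasted and 686, 812, 765 and 871 CPM refed. Fasted S47 stood above the other 3 fasted libraries and below all refed ones, and the log2 fold change amounted to 1.21 (SE 0.22, adjusted p = 0.00126). Creld2, a secreted ER stress protein, was at 24.8, 20.2, 18.2 and 39.7 CPM fasted and 63.1, 72.1, 66.00 and 85.98 CPM refed, a log2 change of 1.48 (SE 0.26, adjusted p = 0.000896). Calr, calreticulin, was at 373, 545, 383 and 475 CPM fasted and 798, 964, 914 and 873 CPM refed, a log2 change of 0.998 (SE 0.13, adjusted p = 9.90e-05). Its membrane-bound relative Canx rose by 0.57 (SE 0.08) and Dnajc3, an ER co-chaperone that restrains the kinase PERK, by 0.50 (SE 0.11). Pdia6, a disulphide isomerase, rose by 1.17 (SE 0.15) and Hsp90b1, the chaperone GRP94, by 0.84 (SE 0.14). Syvn1, a ubiquitin ligase of ER-associated degradation, rose by 0.60 (SE 0.18, adjusted p = 0.0293), not called without S44 (adjusted p = 0.0912), S45 (0.0608), S46 (0.0750), S53 (0.0611) or S55 (0.105). Derl3, a channel component for the same disposal route, was at 1.697, 1.36, 0.841 and 3.67 CPM fasted and 3.22, 3.73, 4.26 and 6.06 CPM refed (1.22, SE 0.59, adjusted p = 0.169).

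Among chaperones whose promoter window lacks these letters or was not in the table, Sdf2l1 and Manf rose most. Sdf2l1, a BiP partner, was at 8.14, 11.7, 6.67 and 12.6 CPM fasted and 38.8, 43.4, 43.5 and 50.4 CPM refed. These groups were far apart, and the log2 change was 2.18 (SE 0.24, adjusted p = 3.74e-05). Hyou1, an ER chaperone of the HSP70 family, rose by 1.63 (SE 0.20), and Pdia3 and Dnajb11 by 0.95 (SE 0.11) and 0.94 (SE 0.10). Xbp1, the transcription factor that is spliced in ER stress, was not called (0.28, SE 0.11, adjusted p = 0.09496), and the splicing is not visible in counts per gene.

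Most listed DNA replication genes rose, from low levels. Of 26 tested genes of DNA replication and the cell cycle 20 rose (76.9%, against 9.28% of all genes) and 0 fell. Their median log2 fold change was 1.60, where in control liver 0 were called and the median was 0.16. Without S52, the refed library with the highest level of these genes, 16 rose, and among genes with a mean of at least 5 CPM 12 rose, since fewer were tested. The difference between the genotypes' responses was called for 3 of the 26, against 0.538% of all genes, and all 3 were more upward in LKO liver. That count was 0 without S48 and 1 without S40, S42, S43, S44, S46, S50 or S55. The helicase subunit Mcm5 was at 2.95, 1.697, 5.605 and 2.05 CPM fasted and 48.2, 17.1, 20.5 and 31.9 CPM refed, a log2 change of 3.26 (SE 0.38, adjusted p = 5.39e-05). Mcm6, another subunit, was at 3.34, 1.36, 3.98 and 2.300 CPM fasted and 49.9, 16.2, 11.9 and 22.8 CPM refed, a log2 change of 3.19 (SE 0.39, adjusted p = 7.61e-05). For both, S52 was the highest refed library and all refed libraries were above all fasted ones. Cdc6, which loads the helicase at origins, was at 0.1997, 0.1697, 0.112 and 0.186 CPM fasted and 5.07, 1.18, 1.79 and 2.56 CPM refed, so that the fasted libraries were near the limit of detection (3.94, SE 0.61, adjusted p = 0.0004398). Rrm2, the subunit of ribonucleotide reductase made in S phase, was at 1.198, 1.92, 0.841 and 1.43 CPM fasted and 15.3, 3.92, 3.89 and 5.41 CPM refed, a log2 change of 2.41 (SE 0.46, adjusted p = 0.00205). Mcm2, Mcm3 and Mcm7 rose by 1.75, 2.13 and 1.12, and Tyms, thymidylate synthase, by 0.68 (SE 0.17).

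The factors E2f1 and E2f2, which drive entry into S phase, rose as well (E2f2 by 2.41, SE 0.41). E2f1 was at 2.15, 4.87, 2.13 and 4.54 CPM fasted and 21.4, 7.78, 10.8 and 12.95 CPM refed, a log2 change of 1.96 (SE 0.29, adjusted p = 0.0003202). Among the members that were not called, Mki67, a marker of cycling cells that peaks in mitosis, was at 0.849, 1.301, 0.673 and 2.24 CPM fasted and 1.64, 0.981, 0.865 and 0.866 CPM refed. These groups overlapped (-0.20, SE 0.40, adjusted p = 0.777). Cdkn1a, the cell cycle inhibitor p21, was at 32.2, 28.8, 12.4 and 113 CPM fasted and 63.9, 27.4, 29.6 and 29.2 CPM refed, with fasted S47 the highest of all (-0.30, SE 0.58, adjusted p = 0.767).

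Promoters of this list were searched for the E2F site TTTCCCGC or TTTGGCGC, a search added after the rise had been seen. Of 24 promoters of 21 genes 7 held it on either strand (29.2%), against 514 of 32851 in the table (1.57%). The genes were Cdc6, Cdt1, E2f2, Mcm3, Mcm5, Mcm6 and Mcm7, of which all but Cdt1 (1.15, adjusted p = 0.0538; called in the fits without S44, S53 or S54) were called higher. Of 336 other tested genes with the site 46 rose (13.7%) and 31 fell, where 9.28% of all genes rose. The stretches that lie upstream of the start are printed, because they include those of Cdc6, Mcm5 and Mcm6, the 3 largest rises of the list. The site is in capitals, in either orientation, with 20 bases to either side.
Cdc6: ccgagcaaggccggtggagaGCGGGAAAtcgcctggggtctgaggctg
Mcm5: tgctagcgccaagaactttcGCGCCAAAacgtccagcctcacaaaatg
Mcm6, outer copy: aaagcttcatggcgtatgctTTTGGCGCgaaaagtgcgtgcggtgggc
Mcm6, inner copy: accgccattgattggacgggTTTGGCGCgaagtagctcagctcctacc
Mcm7: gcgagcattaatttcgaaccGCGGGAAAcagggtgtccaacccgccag
They lie at chr11:98907993-98908040 (Cdc6, plus strand), chr8:75109340-75109387 (Mcm5, plus strand), chr1:128359788-128359835 (Mcm6, minus strand) and chr1:128359725-128359772 (Mcm6, minus strand) and chr5:138172021-138172068 (Mcm7, minus strand) of GRCm38.p6.

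Further motifs were searched in the promoters of other lists. In cholesterol synthesis 14 of 18 promoters (77.8%) held a CCAAT box (CCAAT, either strand), against 37.4% of all promoters. That search was added later and was not planned with the others. Of the 14 genes with the box 11 were called higher, and Tm7sf2, Hsd17b7 and Ebp, which were not called, hold it too. Outside the list 508 of 4499 tested genes with the box rose (11.3%), where 9.28% of all genes rose. In the same list 1 of 18 promoters (5.56%) held the sterol regulatory element TCACNCCAC, against 1.24%. That gene was Hmgcs1, HMG-CoA synthase, whose expression went from 79.1, 111, 49.04 and 107 CPM fasted to 122, 489.9, 284 and 375 CPM refed (1.88, SE 0.43, adjusted p = 0.006802). Its stretch, at chr13:119690194-119690242 (Hmgcs1, plus strand) of GRCm38.p6 with the element in capitals, is shown because it was the only match in the list.
Hmgcs1: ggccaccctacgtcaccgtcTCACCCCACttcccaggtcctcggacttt
The E-box CACGTG was in 2 of 24 lipogenesis promoters (8.33%) against 7.15% of all, the FOXO site GTAAACA in 1 of 15 insulin and FOXO target promoters (6.67%) against 3.65%, and the PPAR direct repeat (2 copies of AGGTCA with 1 base between) in 0 of 22 PPARA target promoters against 0.0396%. The heat shock element (GAA, TTC and GAA with 2 bases between each) was in 5 of 17 heat shock promoters (29.4%) against 0.603%, where 2 of the 4 genes that hold it were called higher, and the cAMP response element TGACGTCA in 1 of 19 promoters of glucocorticoid and cAMP targets (5.26%) against 1.79%. The absence of a match says only that these letters are not within the window.

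**Figure D3:**
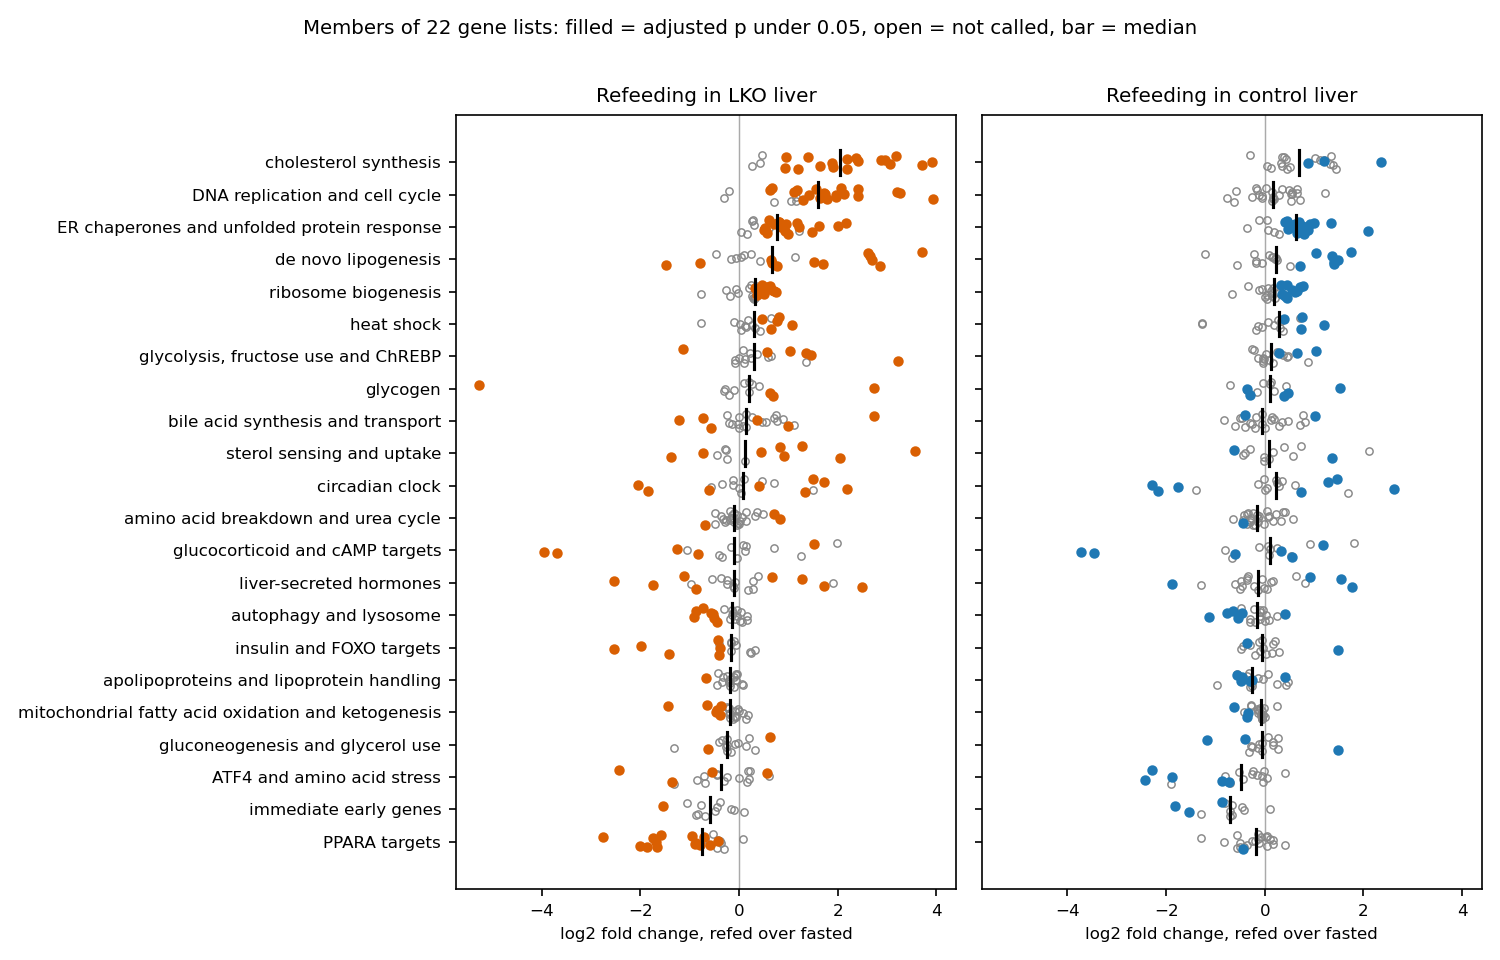
Log2 fold change of each tested member of 22 gene lists on refeeding, in LKO liver on the left and control liver on the right, with filled dots for called genes, open dots for the others and a bar at the median. In LKO liver the medians run from -0.75 for PPARA targets to 2.04 for cholesterol synthesis, and the DNA replication list (1.60) has no filled dot in control liver.

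Parts of ribosome biogenesis and of the cytosolic chaperones rose. Of 24 ribosome biogenesis genes 11 rose (45.8%, against 9.28% of all genes) and 0 fell (median 0.32). In control liver 10 rose (6 without S50), and in LKO liver 8 rose without S52 or without S55. Nop56, a core protein of the particles that methylate ribosomal RNA, was at 19.8, 16.7, 15.9 and 15.04 CPM fasted and 29.4, 28.6, 22.4 and 29.2 CPM refed, a log2 change of 0.70 (SE 0.10, adjusted p = 0.000238). Nolc1, a nucleolar assembly factor, rose by 0.75 (SE 0.12), whereas Myc, a driver of these genes in growing cells, was not called (-0.77, SE 0.32, adjusted p = 0.1096). Of 16 heat shock genes 5 rose (31.25%, against 9.28% of all genes), 3 in the fit without S53 and 8 in that without S46. Hsp90aa1, the inducible cytosolic HSP90, was at 169, 94.1, 207 and 135 CPM fasted and 407, 296, 258 and 316 CPM refed. Its groups did not overlap, and the log2 change was 1.08 (SE 0.22, adjusted p = 0.00281). Its co-chaperone Stip1 rose by 0.81 (SE 0.17).

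Some autophagy genes fell: of 20 genes of autophagy and the lysosome 7 were lower (35%, against 8.78% of all genes) and 0 higher (median -0.14), and 7 were lower in each fit that left out 1 LKO library. Sqstm1, the cargo receptor p62, was at 1044, 766, 843 and 878 CPM fasted and 423, 515, 532 and 457 CPM refed, a log2 change of -0.87 (SE 0.13, adjusted p = 0.000288). Gabarapl1 and Map1lc3b, both ubiquitin-like proteins of the autophagosome membrane, fell by 0.92 (SE 0.20) and 0.58 (SE 0.12), and the lysosomal protease gene Ctsl by 0.51 (SE 0.13). In control liver these 4 genes changed by -0.64, -1.14, -0.77 and -0.55.

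Clock genes moved in both directions, 5 of 18 higher and 3 lower (44.4% called, against 18.1% of all genes), and without S44 1 was lower. Nr1d1, the repressor REV-ERB alpha, was at 154, 179.8, 179.9 and 157 CPM fasted and 15.9, 35.9, 57.2 and 53.3 CPM refed, and Cry1, a repressor of the same loop, at 2.496, 2.66, 2.298 and 5.72 CPM fasted and 27.99, 14.3, 8.03 and 9.49 CPM refed. The log2 changes were -2.05 (SE 0.33, adjusted p = 0.000627) and 2.20 (SE 0.42, adjusted p = 0.00203), and in control liver -2.29 and 2.61. Per2 and Bhlhe40 rose by 1.73 (SE 0.27) and 1.34 (SE 0.17). Arntl, the activator BMAL1, was at 2.196, 2.09, 1.23 and 9.63 CPM fasted and 7.98, 4.19, 1.54 and 1.78 CPM refed. Fasted S47 stood above all other LKO libraries for this gene, and fasted S47 was also the highest fasted library for Cry1 (adjusted p of Arntl = 0.9703).

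Of 901 tested genes that the deposited tables assign to a transcription factor family 48 rose (5.33%, against 9.28% of all genes) and 94 fell (10.4%, against 8.78%). The largest rises without overlap included Srebf1, E2f1, Tsc22d3 and Hes6, and the largest falls were Nr1d1, Rfx4, Junb, Atf5 and Tbx3. E2f1 (fasted LKO mean 3.42 CPM) met the mean of at least 5 CPM only through the refed libraries. Rfx4 (refed LKO mean 2.71 CPM) met it only through the fasted ones. Hes6 was at 39.5, 51.7, 50.8 and 24.2 CPM fasted and 103, 132, 101 and 131 CPM refed, a log2 change of 1.49 (SE 0.22, adjusted p = 0.000288). Tsc22d3, the glucocorticoid-induced leucine zipper GILZ, rose by 1.52 (SE 0.47, adjusted p = 0.0315). The call of Tsc22d3 was lost without S44 (adjusted p = 0.0916), S46 (0.0656), S47 (0.0744), S52 (0.0833), S53 (0.0597) or S55 (0.0649). Atf5, a stress factor linked to ATF4, was at 1240.2, 915, 1006 and 904 CPM fasted and 312, 334, 441 and 503 CPM refed, a log2 change of -1.35 (SE 0.20, adjusted p = 0.000287). Junb, an immediate early gene, fell by 1.54 (SE 0.26), Rfx4 by 1.63 (SE 0.30) and Tbx3 by 1.14 (SE 0.26). Of the 12 immediate early genes Junb was the one called (8.33%, against 18.1% of all genes). Of 18 ATF4 and amino acid stress genes 3 fell, Trib3 and Atf5 among them, and 1 rose (0 without S44 or S52). The share called on that list was 22.2%, against 18.1% of all genes.

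Genes of secreted hormones moved both ways: of 21 tested 4 rose and 4 fell (38.1% called, against 18.1% of all genes), with 2 falling in the fits without S46, S52, S54 or S55. Angptl8, an insulin-induced inhibitor of lipoprotein lipase, was at 13.1, 30.04, 5.89 and 29.2 CPM fasted and 152, 122, 84.7 and 79.6 CPM refed, a log2 change of 2.49 (SE 0.60, adjusted p = 0.00882). Enho, which encodes adropin, was at 5.84, 7.07, 14.7 and 8.89 CPM fasted and 11.7, 35.6, 23.4 and 49.2 CPM refed. Enho overlapped between the groups, since fasted S46 lay above refed S52, and changed by 1.72 (SE 0.40, adjusted p = 0.00728), beside -0.45 in control liver (adjusted p = 0.496). The difference between the genotypes' responses was called for 0 of the 21 genes, Enho included, and for 1, more downward in LKO liver, without S45. The activin subunit genes Inhba and Inhbc rose by 1.27 (SE 0.25) and 0.66 (SE 0.14), and Inhbe fell by 1.11 (SE 0.22). Inhbe was at 481, 452, 388 and 398 CPM fasted and 158, 195, 271 and 174 CPM refed, without overlap. Klf9, a glucocorticoid target, fell by 0.83 (SE 0.17). Of the 16 glucocorticoid and cAMP targets 1 rose, which was Tsc22d3, and 4 fell, the metallothioneins included (31.25% called, against 18.1% of all genes).

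Of 23 genes of bile acid synthesis and transport 3 rose and 3 fell (26.1%, against 18.1% of all genes). Slc10a2, the apical sodium-dependent bile acid transporter, was at 2.396, 3.17, 1.68 and 4.29 CPM fasted and 28.04, 14.5, 15.8 and 18.1 CPM refed. The groups were well apart, and the log2 change was 2.74 (SE 0.27, adjusted p = 2.11e-05). Cyp8b1, which directs synthesis to cholic acid, fell by 1.21 (SE 0.29, adjusted p = 0.00839), and Cyp7a1, the rate-limiting enzyme of bile acid synthesis, was not called (0.46, SE 0.47, adjusted p = 0.548). Klb, the co-receptor for FGF21, and Abcb4, the phospholipid exporter of the canaliculus, fell by 0.72 (SE 0.17) and 0.58 (SE 0.12), and Akr1c6 rose by 0.99 (SE 0.15). Of 27 genes of amino acid breakdown and the urea cycle 2 rose and 1 fell (11.1% called, against 18.1% of all genes). The largest change was that of Glud1, glutamate dehydrogenase (0.82, SE 0.19). On that list 4 rose without S45, 1 without S52 or S53, and 2 fell without S52. Of 19 apolipoprotein and lipoprotein-handling genes 0 rose and 1 fell (5.26% called, against 18.1% of all genes, by edgeR, adjusted over all genes). On this list 0 fell without S44, S46, S52, S54 or S55 and 2 without S45 or S47.

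The same feeding schedule was then compared between the genotypes, to see where LKO liver responded differently. In control liver 2238 genes (15.4% of those tested) were called, with a median absolute log2 fold change of 0.49 and 272 of at least 2-fold. Genes called in both genotypes in the same direction numbered 918 (485 higher, 433 lower), which is 35.1% of the LKO calls and 41.02% of the control calls, and 18 were called in opposite directions. The count in control liver was 1220 without S40 and 1365 without S50. A call in one genotype alone does not show a difference, so the difference of the 2 responses was tested itself. It was called for 78 genes (0.538% of those tested), 45 with a more upward and 33 with a more downward response in LKO liver, against 2397 at an unadjusted p under 0.05 and 0 at an adjusted p under 0.01. This count rested on single libraries: it was 282 without S49, 180 without S45, 8 without S48, 16 without S50, 18 without S40 or S55, 23 without S44, 29 without S43, 33 without S46, 34 without S53, 37 without S42 or S54, 42 without S41 and 43 without S52. Under upper quartile scaling 43 of 108 (39.8%) were more upward, against 57.7% with TMM scaling.

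**Figure D4:**
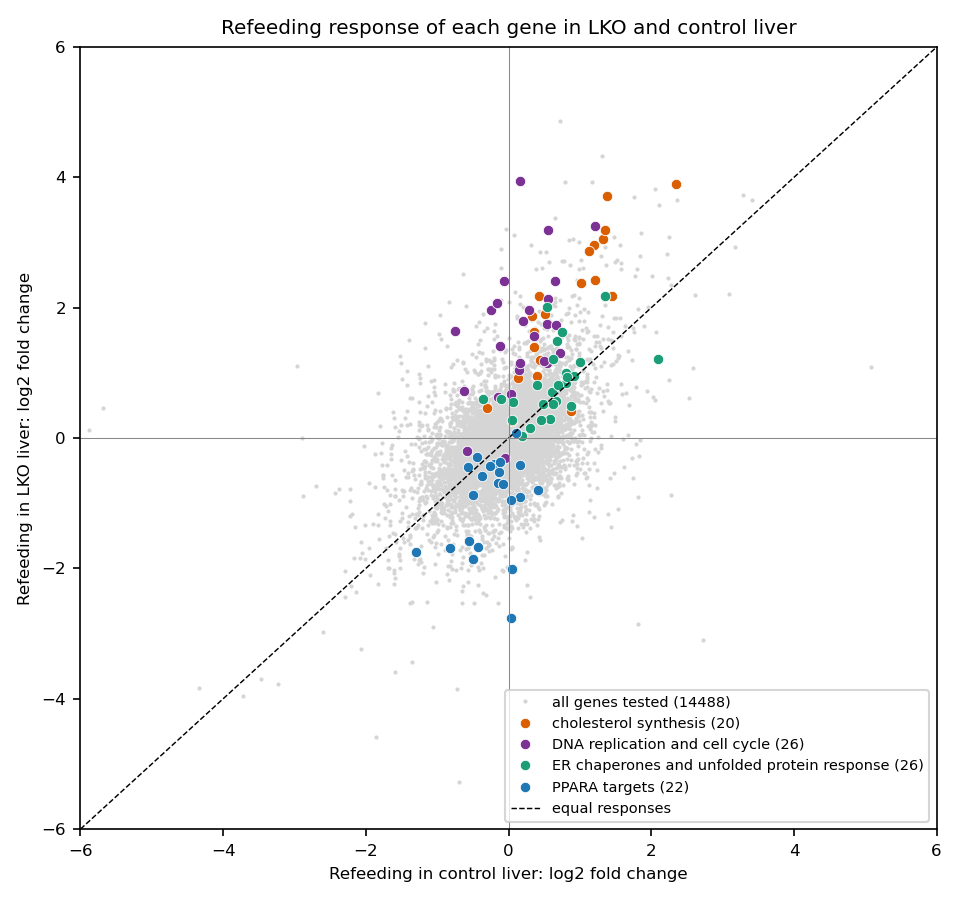
Log2 fold change on refeeding in control liver (x axis) and in LKO liver (y axis) for 14488 genes in grey, with 4 lists coloured and the line of equal responses dashed; 1 gene lies outside the plotted range. Above the line lie 19 of 20 cholesterol synthesis genes, 25 of 26 DNA replication genes, 18 of 26 ER chaperone genes and 2 of 22 PPARA targets.

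Among called protein-coding genes with a mean of at least 5 CPM over the 16 libraries, those with the most upward response in LKO liver were Mcm6, E2f1, Slc10a2, Manf and Cyp2u1. Manf, a secreted ER stress protein, was at 29.3, 35.9, 28.6 and 68.1 CPM in fasted and 139, 183, 149 and 179 CPM in refed LKO liver, and averaged 126 ± 22.5 CPM in fasted and 184 ± 25.8 CPM in refed control liver (SD, n = 4). The refed groups were of similar level and the fasted LKO libraries the lowest, for a difference of 1.46 (SE 0.32, adjusted p = 0.0489). Slc10a2 had the same form: control liver averaged 9.39 ± 1.82 CPM fasted and 19.03 ± 4.34 CPM refed (SD, n = 4), and the difference was 1.72 (SE 0.37, adjusted p = 0.0447). For Mcm6 it was the refed LKO group that stood out, and only through that group did the gene reach a mean of 5 CPM. For E2f1 the refed LKO group was the highest, and the fasted LKO group had the lowest mean. The fasted LKO libraries held 2.13 to 4.87 CPM, against 5.60 to 6.26 CPM in fasted control liver. They overlapped the refed control libraries, which held 4.54 to 5.49 CPM. E2f1 averaged 5.902 ± 0.311 CPM in fasted and 4.97 ± 0.502 CPM in refed control liver (SD, n = 4), and the differences were 2.64 (SE 0.56, adjusted p = 0.0438) for Mcm6 and 2.21 (SE 0.41, adjusted p = 0.0327) for E2f1. Gins1, another replication factor and below that mean, gave 1.54 (SE 0.26, adjusted p = 0.0194), and Srm 0.87 (adjusted p = 0.0194). Cyp2u1, a cytochrome P450 of fatty acids, was at 28.5, 46.3, 23.9 and 35.9 CPM fasted and 77.7, 64.6, 58.1 and 74.6 CPM refed in LKO liver, a log2 change of 1.03 beside -0.38 in control liver. Of 16 fits that each left out 1 library, the difference was lost in 1 for Gins1 and Srm (without S48, adjusted p = 0.0574 and 0.0543), in 8 for E2f1, 11 for Cyp2u1, 12 for Mcm6, 13 for Slc10a2 and 14 for Manf, with highest adjusted p of 0.0781, 0.0847, 0.0973, 0.0941 and 0.0940 (without S40 for E2f1, Mcm6 and Slc10a2, without S55 for Cyp2u1 and Manf).

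Under the same condition those with the most downward response were Acot3, Rab30, Lars2, Slc16a1 and Ccng2. For Slc16a1 control liver averaged 28.01 ± 5.82 CPM fasted and 33.1 ± 3.298 CPM refed (SD, n = 4), close to refed LKO, so the fasted LKO libraries alone were high. The difference was -1.68 (SE 0.25, adjusted p = 0.0168) and was called in each of 16 fits with 1 library fewer. Ccng2 was at 13.1, 11.5, 13.1 and 17.9 CPM in fasted and 4.25, 6.21, 6.37 and 4.03 CPM in refed LKO liver and 7.84 to 9.02 and 7.06 to 10.3 CPM in fasted and refed control liver. Its control groups lay between those of LKO liver, and the difference was -1.44 (SE 0.24, adjusted p = 0.0194), lost without S48 (adjusted p = 0.0543). Rab30, a small GTPase of the Golgi, was at 64.3, 37.1, 51.1 and 57.2 CPM fasted and 9.77, 11.1, 14.4 and 8.97 CPM refed in LKO liver, with a difference of -1.82 (SE 0.38, adjusted p = 0.0426) that was lost in 14 of 16 such fits (highest adjusted p = 0.0941, without S40). Acot3 and Acot4 gave -2.05 (adjusted p = 0.0334) and -1.21 (adjusted p = 0.0426), lost in 9 and 12 of the 16 (highest 0.0830 and 0.0847, both without S55). Smaller differences of the same sign were called for Crat (-0.83, adjusted p = 0.0406, lost in 10, highest 0.0847 without S55), Lgals4 (-0.86, 0.0457, lost in 11, highest 0.103 without S40) and Rtf2 (-0.65, 0.0294, lost in 5, highest 0.0722 without S40).

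Lipa and Lars2 were among the genes called in opposite directions. Lipa, the lysosomal lipase that hydrolyses cholesteryl esters and triglycerides, was at 351, 221, 348 and 283 CPM fasted and 214, 223, 204 and 190.5 CPM refed in LKO liver. Fasted S45 overlapped the refed libraries, and the change was -0.53 (SE 0.12, adjusted p = 0.00512). In control liver Lipa rose from 155 ± 10.1 to 206 ± 7.500 CPM (SD, n = 4; 0.41, adjusted p = 0.0267), reaching the same refed level, a call lost without S40 (adjusted p = 0.0844), S42 (0.0564), S43 (0.0599), S48 (0.0699) or S50 (0.0584). The difference was -0.94 (SE 0.17, adjusted p = 0.0261), lost in 4 of 16 fits with 1 library fewer (up to an adjusted p of 0.0661, without S40). Lars2, mitochondrial leucyl-tRNA synthetase, was at 124, 127, 196 and 142 CPM fasted and 109.7, 86.8, 81.8 and 109 CPM refed in LKO liver, and at 62.04 to 91.3 CPM fasted and 115 to 181 CPM refed in control liver. Its change was -0.60 in LKO liver (SE 0.18, adjusted p = 0.02802; lost without S46, 0.102, S53, 0.0762, or S54, 0.0782) and 1.10 in control liver (SE 0.18, adjusted p = 0.00137), and the difference of -1.71 (SE 0.26, adjusted p = 0.0168) was called in all 16 fits. Rn18s-rs5, a ribosomal RNA sequence that poly-A selection should remove and that was looked up after these values had been seen, moved alike: it was at 3644, 2990.3, 4337 and 3676 CPM fasted and 3038, 1996, 1935 and 2475 CPM refed in LKO liver, and at 2104 to 3912 CPM fasted and 3182 to 4871 CPM refed in control liver. Its changes were -0.63 (SE 0.19, adjusted p = 0.0323) and 0.59 (SE 0.19, adjusted p = 0.0493), the call being lost without S44, S46, S47, S53, S54 or S55 in LKO liver (highest adjusted p = 0.0911, without S53) and without S40, S41, S43, S48, S49 or S50 in control liver (highest 0.141, without S43). Its part in the counts of Lars2 was not tested.

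Of the listed markers of endothelium, stellate cells, Kupffer cells, recruited macrophages, neutrophils, lymphocytes and red blood cells 0 were called in LKO liver (edgeR). Some of these sets were low. In fasted LKO liver the T or NK cell markers summed to a median of 5.65 CPM and the neutrophil markers, 2 of 5 tested, to 4.06 CPM. A change in such cells could have been missed. The 6 Kupffer cell markers summed to 258 to 373 CPM in fasted and 184 to 277 CPM in refed LKO libraries, with all 6 estimates negative (median log2 change -0.43). The 5 red blood cell markers summed to 300.3 to 520.2 CPM fasted and 219 to 974 CPM refed, with all 5 estimates positive (median 0.35). Their part in other results was not tested. Krt19, a bile duct keratin, was at 29.00, 1.24, 1.12 and 1.24 CPM fasted and 1.38, 0.8503, 2.22 and 1.26 CPM refed. Fasted S44 alone was high, and the call (-2.53, adjusted p = 0.0496) was lost and its sign turned without S44 (0.24, adjusted p = 0.676), and it was lost as well without S52 (adjusted p = 0.110), S53 (0.114), S54 (0.0650) or S55 (0.114). Fasted S44 also held more of the duct markers Krt7 and Epcam (4.59, 0.849, 1.401 and 0.435 and 7.89, 0.905, 1.91 and 1.62 CPM over the fasted libraries), and their part in other results was not tested.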

How the data were processed

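Poly-A RNA of mouse liver was sequenced in 16 libraries, 4 in each of 4 groups, per the labels' protocols with random hexamers and dUTP. The authors deposited whole-number read counts per gene in 4 tables of 8 libraries. HISAT2 2.0.5 and build mm39 are named in the submitters' processing notes; the counting tool, its use of strand and the annotation are not given in the sources used here. The deposited tables also hold the authors' log2 fold changes and p-values, used here only for the count quoted as theirs, gene lengths, and 64 further columns of values per library, which were not used. Libraries S40 to S55 were placed in groups by the group headings of the tables, and no replicate number could be attached to them. The tables were joined into 25803 genes, with 0 counts differing between tables. Library totals ran from 14721601 to 24618230 counts, which bounds the precision of genes under about 1 CPM.

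Genes passing filterByExpr (14488) were fitted in R 4.3.3 with edgeR 4.0.16 (glmQLFit and glmQLFTest on counts, TMM scaling, the 4 groups as one factor, all 16 libraries sharing the estimate of spread). The contrasts were refed minus fasted in LKO, the same in control, and their difference. A gene was called where its p-value, adjusted over all tested genes by the Benjamini-Hochberg method, was under 0.05, and SE is the size of the log2 fold change divided by the square root of F. The procedure was tested on simulated data. CPM use TMM-scaled totals. The genes named are Cpt1a, list members, the 10 largest rises and falls, the 5 smallest p-values and the 5 largest transcription factor changes in each direction (called, protein coding, at least 5 CPM, no overlap), and the 5 largest differences in each direction; some genes that met this rule are not reported here. The members and the 22 pathway and 12 marker lists were chosen with earlier results of these data known, and the list members given with values were picked after these had been seen.

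Alternatives were RLE and upper quartile scaling, no filter or a mean of at least 5 CPM, only the 2 groups compared, limma-voom (limma 3.58.1), DESeq2 1.42.0, stricter thresholds, and each library left out in turn. Promoter sequences are those of RefSeq on GRCm38.p6, used for letters only, since the files' build is mm39; tables and figures were made in Python 3.11.15 with pandas 2.3.3 and matplotlib 3.10.9.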

Additional observations from a re-analysis of the deposited data

Results flagged for a closer look

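In 21 of 288 groups of 4 LKO libraries looked at (144 genes named, fasted and refed), 1 library lay far from the other 3, its gap to the nearest exceeding the critical value of Dixon's test. Chance gives about 1 in 20. Library S52 was the far one in 8 of the refed groups. It was high for replication and cell cycle genes, with Rrm2 at 15.3, Tyms at 14.2, Gins1 at 10.7, Mki67 at 1.64 and Cdkn1a at 63.9 CPM, and for Insig2 at 252 CPM, and low for Fdps at 1.995 and Pklr at 125 CPM. S53 stood apart for Tuba1c (148 CPM) and Xbp1 (284 CPM), and S54 for Junb (32.9 CPM) and Nop56 (22.4 CPM). Among the fasted libraries S44 stood apart for the bile duct markers Krt19 (29.0 CPM) and Epcam (7.89 CPM), S45 for Srebf1 (45.9 CPM), and S46 for Uhrf1 (0.729 CPM) and Npc1 (129.9 CPM). S47 stood apart for the clock genes Cry1 (5.72 CPM) and Arntl (9.63 CPM), and for Nr1h3 (128 CPM) and Canx (154 CPM).

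The edgeR test of the difference between the genotypes' responses called 17 of the named genes, beside 78 of all 14488 tested (0.538%). Many of the 17 were named because their difference was called, so this count says nothing about the named genes as a set. Lars2 and Slc16a1 were called in all 16 fits with 1 library fewer, and each of the others was lost in 1 to 14 of them. On the log2 scale, LKO minus control, the response was more upward for Mcm6 (2.64), E2f1 (2.21), Slc10a2 (1.72), Gins1 (1.54), Manf (1.46), Cyp2u1 (1.41) and Srm (0.87). It was more downward for Acot3 (-2.05), Rab30 (-1.82), Lars2 (-1.71), Slc16a1 (-1.68), Ccng2 (-1.44), Acot4 (-1.21), Lipa (-0.94), Lgals4 (-0.86), Crat (-0.83) and Rtf2 (-0.65).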

How the results depend on the processing

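The 2616 calls of refeeding in LKO liver became 1265 at an adjusted p under 0.01 and 610 with at least a 2-fold change. They ranged from 1795 (without S52) to 2448 (without S45) over the fits that left out 1 library, and stayed within 1.5 times of 2616 under RLE and upper quartile scaling, both filters, limma-voom, DESeq2 and the 2 groups alone. The 2238 control calls became 822 and 272 under those thresholds and ranged from 1220 to 2483 without 1 library. The 78 called differences became 0 and 35 under the same thresholds, 197 with a mean of at least 5 CPM, 469 with DESeq2, and 8 to 282 without 1 library. The Cpt1a change in LKO liver (-0.89) did not reach an adjusted p under 0.01 or a 2-fold change. Of all 2616 calls in LKO liver, 1459 were called in all 8 fits that left out 1 LKO library. Of 127 named genes called in LKO liver, 120 were called in all 8 such fits. Many of these were named for small p-values or large changes, so that share does not describe the other calls. Of the 127, 2 were lost with limma-voom, 1 with DESeq2 and 0 under either other scaling. Krt19 turned sign without S44 (0.24) and was lowest without S46 (-2.89). The cause of these shifts was not tested. Genes under 1 CPM, such as Cdc6 in fasted liver, rest on few counts. No paired analysis was possible because the count columns carry no replicate numbers and cannot be tied to the numbered sample titles.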
